A study of Arabidopsis thaliana with 8 samples.

Results

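Aquaporins, the channel proteins that let water and small uncharged solutes cross membranes, were followed as a gene family in roots of Arabidopsis thaliana seedlings. The family was taken as the 35 loci listed for this species, 13 PIP, 10 TIP, 9 NIP and 3 SIP genes, out of 40246 features in a table of read counts. All 35 were in the table. The family was fixed by locus and not by measured values. Polyadenylated RNA of roots was sequenced in 4 groups of 2 libraries, numbered Exp 1 and Exp 2 and described as biological replicates. The groups were bzr1-D on low phosphate (Pi, 1 µM), bzr1-D on adequate Pi (0.625 mM), wild type on low Pi and wild type on adequate Pi. Both genotypes were in the Col-0 background, seedlings were moved to these media at day 6, and roots were harvested after 24 h, at day 7. In bzr1-D plants a dominant mutation keeps BZR1 active, a regulator of genes that respond to the hormone brassinosteroid. The number of bzr1-D lines used and their backcrosses to Col-0 were not given in the sources used here.

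PIP proteins (plasma membrane intrinsic proteins) form the main water channels of the cell surface, and TIP proteins (tonoplast intrinsic proteins) those of the vacuole. NIP proteins (nodulin 26-like intrinsic proteins) mostly carry solutes such as boric acid and arsenite, and SIP proteins (small and basic intrinsic proteins) lie in the endoplasmic reticulum. In roots, PIP channels carry much of the water that crosses cells on its way to the xylem, and shortage of mineral nutrients is known to lower the water conductance of roots. Gene names are written here with a hyphen, so that PIP1-2 is the gene that the annotation lists as PIP1;2.

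Library totals ran from 15947895 to 22150569 counts, and aquaporins took 1.12% to 1.57% of them. All 13 root markers on a list that includes SCR, EXPA7 and CASP1 were detected in all 8 libraries. Their summed level was 965 to 1171 CPM (counts scaled to library size by TMM), of which PHO1 alone gave 493 to 719 CPM. The sum therefore says little about the other root markers. EXPA7 ran from 9.38 to 39.2 CPM and CASP1 from 140 to 197 CPM. Averaged over Pi supplies, 5 of 13 root markers were higher in bzr1-D than in wild type (median log2 fold change -0.07). The 13 shoot markers summed to 78.2 to 94.5 CPM in bzr1-D libraries and 42.4 to 84.3 CPM in wild-type libraries. Of these, 8 were detected in all 8 libraries. RCA was the highest with 23.4 to 37.7 CPM, and CA1 and RBCS2B were at or near 0 in several libraries. On adequate Pi, 12 of 13 were higher in bzr1-D than in wild type (median log2 fold change 1.16). On low Pi, 7 of 13 were (median 0.31). The 10 touch and wounding genes summed to 149.8 to 219.9 CPM in bzr1-D libraries and to 251, 568, 129 and 233 CPM in the wild-type libraries. The 568 CPM were in the low Pi library of Exp 2, with 367 CPM from TCH3 alone. TCH3, TCH4, WRKY40, JAZ10 and LOX3 were highest in that library, and TCH2, ZAT12, LOX4, OPR3 and CYP94B3 in others. Averaged over Pi supplies, 1 of the 9 touch and wounding genes tested was higher in bzr1-D than in wild type (median log2 fold change -0.62). Of these 9, 2 were called lower (edgeR adjusted p under 0.05), where 3.31% of all tested features were. With the Exp number in the fit 3 were, where 8.48% of all tested features were. The part of shoot tissue or handling in the results was not tested. Because whole roots were sequenced, fewer cells of a type and less RNA per cell cannot be told apart.

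Levels of different genes were compared as TPM, which divides counts by exon length. The vacuolar channel TIP1-1, which passes water and hydrogen peroxide, had the highest mean level of the family and stood 9th by TPM among 24085 features with counts. Its level was 2312 and 2881 TPM in bzr1-D on low Pi, 2489 and 2747 TPM in bzr1-D on adequate Pi, 2191 and 1864 TPM in wild type on low Pi, and 2352 and 2451 TPM in wild type on adequate Pi, Exp 1 before Exp 2. The low Pi library of wild type in Exp 2 was the lowest of the 8 and the low Pi library of bzr1-D in Exp 2 the highest.

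PIP1-2, which contributes to the water conductance of roots, was the highest PIP. It stood at 1569 and 2596 TPM in bzr1-D on low Pi, 2009.6 and 2647 TPM in bzr1-D on adequate Pi, 1889 and 1909.5 TPM in wild type on low Pi, and 2019 and 2553 TPM in wild type on adequate Pi. The 2 libraries of bzr1-D on low Pi were further apart than the means of any of the 4 groups. TIP1-2, PIP2-1, PIP1-1, TIP2-2 and PIP2-2 came next, with means over the 8 libraries between 1340 and 2026 TPM. Over all 8 libraries the ranges of TIP1-1, PIP1-2 and TIP1-2 overlapped (1864 to 2881, 1569 to 2647 and 1566 to 2419 TPM). In every bzr1-D library TIP1-1 was the highest of these 3 genes, at 2312 to 2881 TPM against 1566 to 1990 TPM for TIP1-2. Among wild-type libraries the highest of the 3 was not always the same gene.

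The highest NIP was NIP1-1, known to admit arsenite, at 212 and 147.8 TPM in bzr1-D on low Pi, 211 and 149 TPM in bzr1-D on adequate Pi, 176 and 149 TPM in wild type on low Pi, and 215 and 192 TPM in wild type on adequate Pi. In each of the 4 groups the Exp 1 library was the higher one. SIP1-1 was the highest SIP and varied least of these 4 genes. It stood at 189.0 and 196 TPM in bzr1-D on low Pi, 188 and 189 TPM in bzr1-D on adequate Pi, 172 and 169.6 TPM in wild type on low Pi, and 163 and 177 TPM in wild type on adequate Pi.

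**Figure D1:**
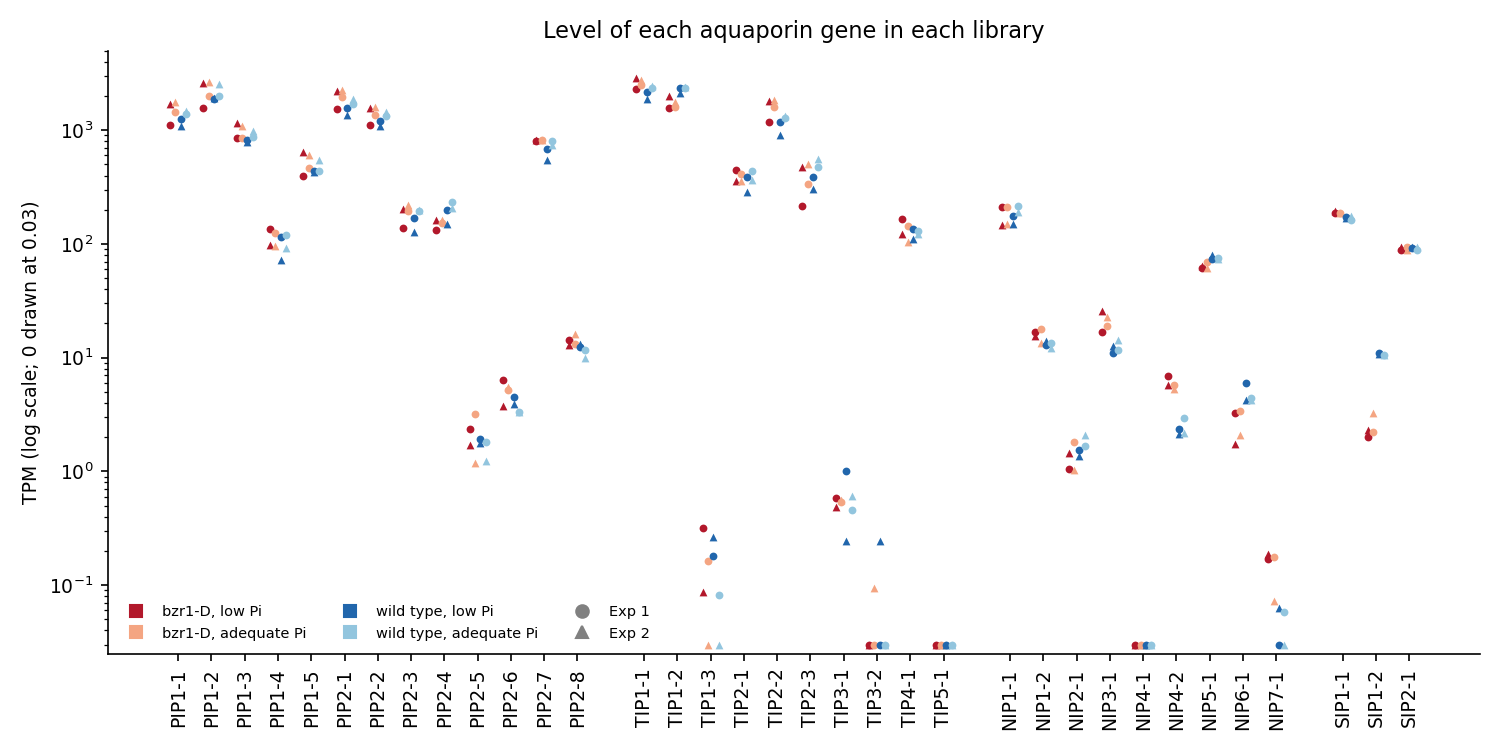
Level of each of the 35 aquaporin genes in TPM on a log axis, with 1 point per library, colour for the group and shape for the Exp number. TIP1-1 reached 2881 TPM, whereas TIP5-1 and NIP4-1 had no count in any library.

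Summed over members, the PIP genes made up 53.6% to 58.9% of all aquaporin TPM in a library, the TIP genes 38.3% to 42.8%, the NIP genes 1.33% to 2.23% and the SIP genes 1.46% to 2.00%. The 13 PIP genes together averaged 9499.6 ± 2365 TPM in bzr1-D on low Pi, 10347 ± 1326 TPM in bzr1-D on adequate Pi, 7963 ± 535 TPM in wild type on low Pi and 9616 ± 701 TPM in wild type on adequate Pi (SD, n = 2 each). The TIP genes averaged 6756 ± 1219, 6969 ± 536, 6126 ± 756 and 7139.8 ± 143 TPM in the same groups. The mean PIP sums of all 4 groups lay within the spread of bzr1-D on low Pi, whose 2 libraries stood at 11172 TPM in Exp 2 and 7827 TPM in Exp 1. The SIP sum kept to a narrow band of 263 to 293 TPM, and the NIP sum to 256 to 329 TPM.

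**Figure D2:**
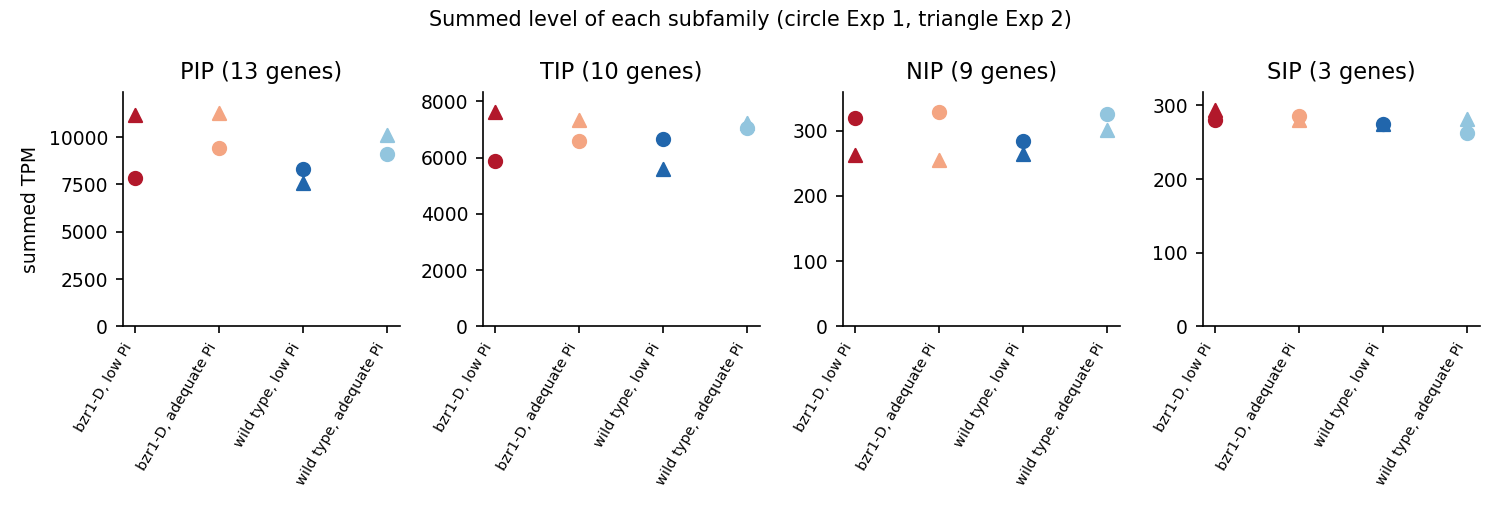
Summed TPM of the PIP, TIP, NIP and SIP genes in each library (circles Exp 1, triangles Exp 2) for the 4 groups. The PIP sum ran from 7585 to 11284 TPM and the SIP sum from 263 to 293 TPM.

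Of the 35 genes, 29 passed the filter on low counts and were tested, namely all 13 PIP, 6 of 10 TIP, 7 of 9 NIP and all 3 SIP genes. Each of the 29 reached the filter's level of 0.531 CPM in all 8 libraries, so none passed through 1 group alone. The other 6, TIP1-3, TIP3-1, TIP3-2, TIP5-1, NIP4-1 and NIP7-1, were too low to measure. TIP3-1, a channel of seed storage vacuoles, was the highest of these with 3 to 12 counts per library, and TIP3-2, the other seed channel, had 0 counts in 6 libraries. TIP1-3 and TIP5-1, known from pollen, had at most 4 and 0 counts, and NIP7-1, a boric acid channel of anthers, had at most 3. NIP4-1, known from pollen, had 0 counts in all 8 libraries. A count of 0 allows up to 3 counts, which is 0.135 to 0.188 CPM depending on the library, counting error only.

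Counts of a few members are uncertain because reads of 50 bases do not tell them from other genes. PIP2-2, a root water channel, and PIP2-3, first described as RD28 from desiccation, neighbour each other on chromosome 2. They share 254 windows of 50 bases, 19.6% of those in PIP2-2 and 21.7% of those in PIP2-3. The longest stretch they have in common is 242 bases of coding sequence, bases 304 to 545 of the coding sequence of PIP2-2 and bases 175 to 416 of that of PIP2-3 in RefSeq's TAIR10.1 annotation. It is shown, in lower case throughout, because no read that falls inside it can be assigned to either gene:
PIP2-2 and PIP2-3: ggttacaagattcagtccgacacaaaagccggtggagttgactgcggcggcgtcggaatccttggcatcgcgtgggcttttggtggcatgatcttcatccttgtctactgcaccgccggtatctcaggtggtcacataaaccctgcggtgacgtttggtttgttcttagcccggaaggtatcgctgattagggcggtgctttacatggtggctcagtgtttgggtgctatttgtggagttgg
In NIP2-1, a lactic acid channel of roots short of oxygen, 62.5% of windows occur elsewhere, among other places in AT2G08660 and AT2G29870. For NIP3-1 it is 11.4%, shared with AT2G21020, and for NIP4-2 2.59%, shared with NIP4-1. Among tested genes, TIP2-1, NIP2-1, NIP6-1 and SIP2-1 overlap a neighbouring gene in the deposited coordinates, by 120, 30, 26 and 147 bases. Among genes too low to measure, TIP3-2 and TIP5-1 each overlap one by 91 bases. TIP3-2 shares 40.5% of its windows with other genes and TIP3-1 21.3%, so some of their reads may be missing from the counts. Any use of strand in counting was not given in the sources used here. SIP1-2 shares no window and overlaps no other feature.

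The comparison of bzr1-D with wild type asks what the active BZR1 allele changes in the root. Averaged over both Pi supplies, 3 of the 29 tested genes passed edgeR's quasi-likelihood test at an adjusted p under 0.05, where 5.37% of all 20262 tested features did. SIP1-2 was lower, where 3.31% of all features were called lower, and NIP4-2 and NIP3-1 were higher, where 2.06% were called higher. All 3 stood far below the abundant PIP and TIP genes, none of which passed this test, which leaves the Exp number out. Among all features NIP3-1 was not low, since its mean of 16.8 TPM ranked 10110th of 24085 features with counts.

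SIP1-2 (AT5G18290.1, chromosome 5, 6055028 to 6056700), a channel of the endoplasmic reticulum, had 30 and 31 counts in bzr1-D on low Pi, 32 and 38 in bzr1-D on adequate Pi, 144 and 146 in wild type on low Pi, and 152 and 174 in wild type on adequate Pi. As levels these were 1.53 and 1.75 CPM, 1.66 and 2.36 CPM, 7.93 and 7.89 CPM, and 7.70 and 7.82 CPM in the same order. All 4 bzr1-D libraries lay below all 4 wild-type libraries, and the wild-type libraries differed among themselves by little. The log2 fold change was -2.11 ± 0.15 (SE; edgeR adjusted p = 0.00027), a 4.31-fold lower level in bzr1-D. The deposited feature covers 1 of 2 RefSeq transcripts of the locus, the shorter one, and the locus reaches to 6058368.

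NIP4-2 (AT5G37820, chromosome 5, 15050261 to 15051542), known mainly from pollen, had 94 and 69 counts in bzr1-D on low Pi, 74 and 56 in bzr1-D on adequate Pi, 28 and 26 in wild type on low Pi, and 38 and 32 in wild type on adequate Pi. As levels these were 4.80 and 3.90 CPM, 3.85 and 3.48 CPM, 1.54 and 1.41 CPM, and 1.92 and 1.44 CPM. The groups of the 2 genotypes did not overlap. The log2 fold change was 1.34 ± 0.17 (SE; edgeR adjusted p = 0.0047), a 2.54-fold higher level in bzr1-D.

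NIP3-1 (AT1G31885, chromosome 1, 11450460 to 11451985), which takes part in arsenite uptake by roots, had 281 and 386 counts in bzr1-D on low Pi, 302 and 293 in bzr1-D on adequate Pi, 161 and 189 in wild type on low Pi, and 189 and 262 in wild type on adequate Pi. As levels these were 14.3 and 21.8 CPM, 15.7 and 18.2 CPM, 8.86 and 10.2 CPM, and 9.57 and 11.8 CPM. The genotypes did not overlap, and in CPM Exp 2 was the higher library in each group. The log2 fold change was 0.79 ± 0.16 (SE; edgeR adjusted p = 0.033), a 1.73-fold higher level in bzr1-D. This call was lost when any 1 library other than that of bzr1-D on low Pi in Exp 1 was left out (adjusted p from 0.061 to 0.12).

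**Figure D3:**
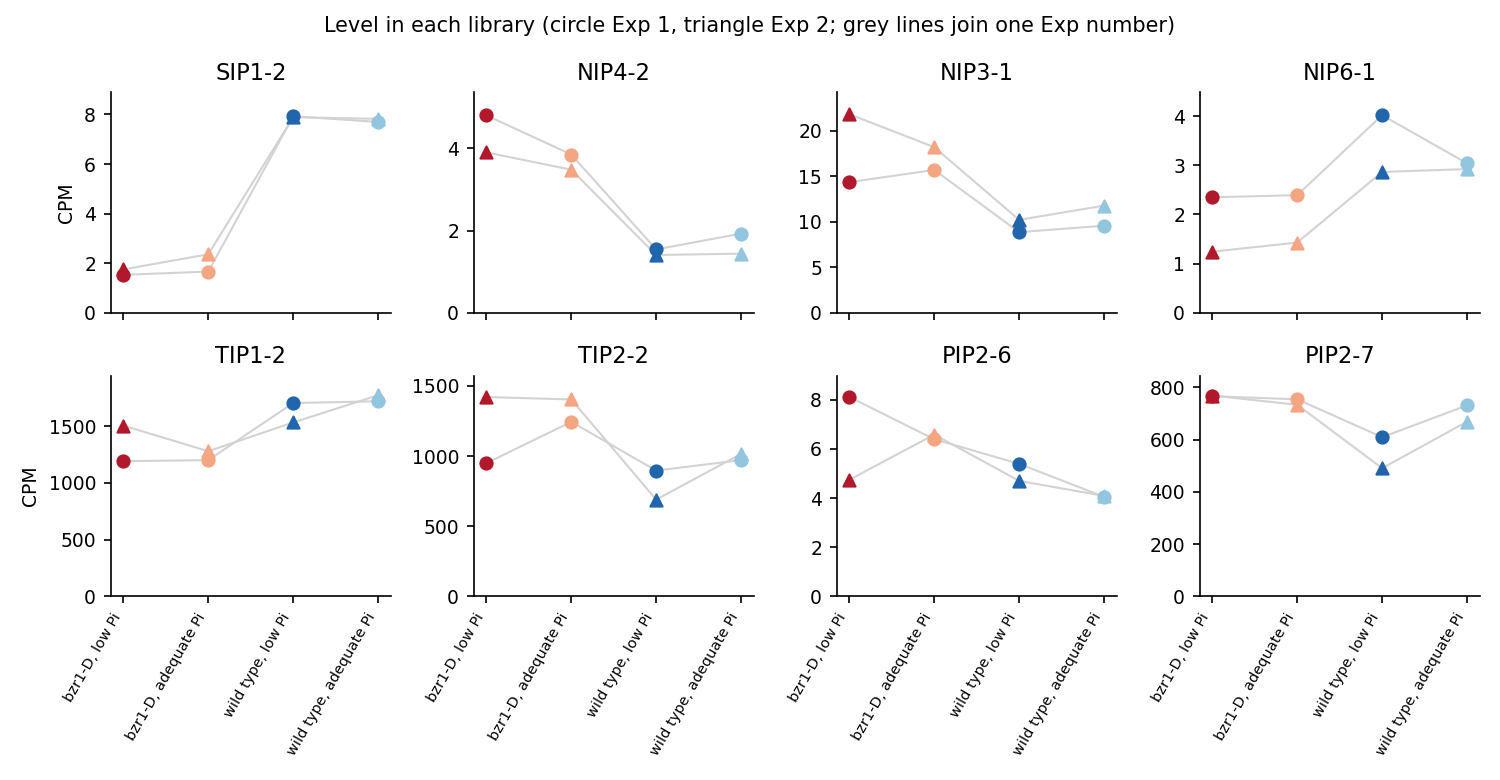
Level in CPM, on axes that start at 0, of 8 aquaporin genes in each library (circles Exp 1, triangles Exp 2), with grey lines joining libraries of 1 Exp number. SIP1-2 stood at 1.53 to 2.36 CPM in bzr1-D and 7.70 to 7.93 CPM in wild type, and NIP4-2 and NIP3-1 were the other way round.

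These 3 genes differ in what lies around them, a description made after their values were seen. Within 500 kb on each side of NIP4-2, 36 of 123 other tested features (29.3%) were also called between the genotypes. Around NIP3-1 it was 30 of 149 (20.1%), and around SIP1-2 15 of 214 (7.01%), against 5.37% of all features. Of the 10 nearest tested features, 2 were called beside NIP4-2, 4 beside NIP3-1 and 3 beside SIP1-2. Of 112 stretches of 1 Mb on chromosomes 1 to 5 with at least 20 tested features, 7 had 20% or more called, and the median stretch had 2.09%. The stretch that holds NIP4-2 had the 2nd highest share, 28.9%. That of NIP3-1 ranked 11th with 18.1% and that of SIP1-2 29th with 9.17%, so all 3 lay above the median stretch. The BZR1 allele and any other sequence that the line carries in these stretches cannot be told apart in this design.

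The bases upstream of these genes were read from RefSeq's TAIR10.1 genome to show what the windows searched for BZR1 motifs look like. The windows held 300 bases before the transcript start. For SIP1-2 it was taken before the start of the transcript that matches the deposited feature, chr5:6056701-6057000 on the minus strand. For NIP4-2 it was chr5:15049702-15050001 on the plus strand. For NIP3-1 a window of 30 bases is given, chr1:11450251-11450280 on the plus strand, since the longer one reaches into the neighbouring gene AT1G31880. Capitals mark CGTGTG, one of the brassinosteroid response elements that BZR1 is known to bind, whose first base lies 52 bases before the RefSeq start of NIP3-1:
NIP3-1: tgtaaaccatgtCGTGTGttttgtgacaaa
SIP1-2: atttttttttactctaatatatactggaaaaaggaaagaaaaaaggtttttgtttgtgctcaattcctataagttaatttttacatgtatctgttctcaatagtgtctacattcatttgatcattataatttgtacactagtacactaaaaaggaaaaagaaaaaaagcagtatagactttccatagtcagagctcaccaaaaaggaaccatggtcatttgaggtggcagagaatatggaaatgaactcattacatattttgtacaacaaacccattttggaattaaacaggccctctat
NIP4-2: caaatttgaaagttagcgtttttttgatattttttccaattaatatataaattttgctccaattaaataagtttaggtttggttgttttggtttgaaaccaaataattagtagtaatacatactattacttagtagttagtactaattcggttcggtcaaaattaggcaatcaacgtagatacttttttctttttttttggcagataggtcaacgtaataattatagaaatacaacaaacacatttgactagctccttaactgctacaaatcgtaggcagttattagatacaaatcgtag
Searched on both strands, the brassinosteroid response element CGTGCG was in 0 of the 35 aquaporin windows. It was in 1.78% of all 27443 windows, which are those of nuclear protein-coding genes. CGTGTG was in 1 of 35, that of NIP3-1, and in 6.11% of all windows. The G-box CACGTG was in 0 of 35, and in 7.09% of all windows. The site GNATATNC of PHR1, the main transcription factor of the Pi starvation response, was in 3 of 35, those of PIP2-4, TIP2-2 and SIP2-1, and in 6.50% of all windows. The letters describe these windows only.

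With the Exp number in the fit as a replicate block, 10 of 29 aquaporin genes were called in the averaged genotype comparison, where 15.3% of all features were, 6.77% higher and 8.48% lower. The 7 higher genes were NIP4-2, NIP3-1, TIP2-2, PIP2-6, SIP1-1, PIP2-7 and PIP1-4, and the 3 lower ones SIP1-2, TIP1-2 and NIP6-1. TIP1-2, a vacuolar water channel, was the only abundant gene among those lower. It had 1190 and 1504 CPM in bzr1-D on low Pi, 1200.0 and 1278 CPM in bzr1-D on adequate Pi, 1702 and 1531 CPM in wild type on low Pi, and 1718 and 1771 CPM in wild type on adequate Pi. The genotypes did not overlap, and the log2 fold change was -0.38 ± 0.09 with the block (SE; edgeR adjusted p = 0.015) and -0.38 ± 0.12 without it (adjusted p = 0.15).

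TIP2-2, a vacuolar channel of the inner root tissues, was higher with the block, at 949 and 1421 CPM in bzr1-D on low Pi, 1244 and 1404 CPM in bzr1-D on adequate Pi, 897 and 689.5 CPM in wild type on low Pi, and 971 and 1016 CPM in wild type on adequate Pi. Its log2 fold change was 0.49 ± 0.14 with the block (SE; edgeR adjusted p = 0.043) and 0.50 ± 0.16 without it (adjusted p = 0.17). Within Exp 2 the genotypes did not overlap, and within Exp 1 the low Pi library of bzr1-D lay below the adequate Pi library of wild type. TIP1-2 and TIP2-2, both abundant, thus moved in opposite directions within the TIP subfamily.

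NIP6-1, a boric acid channel known from shoot nodes, was lower with the block, with a log2 fold change of -0.80 ± 0.18 (SE; edgeR adjusted p = 0.011). Its libraries held 46 and 22 counts in bzr1-D on low Pi, 46 and 23 in bzr1-D on adequate Pi, 73 and 53 in wild type on low Pi, and 60 and 65 in wild type on adequate Pi. The neighbour it overlaps, AT1G80750, held 866 to 1726 counts. The 4 other genes that were called with the block alone had log2 fold changes of 0.20 (SIP1-1), 0.23 (PIP1-4), 0.29 (PIP2-7) and 0.50 (PIP2-6), with adjusted p from 0.027 to 0.041.

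**Figure D4:**
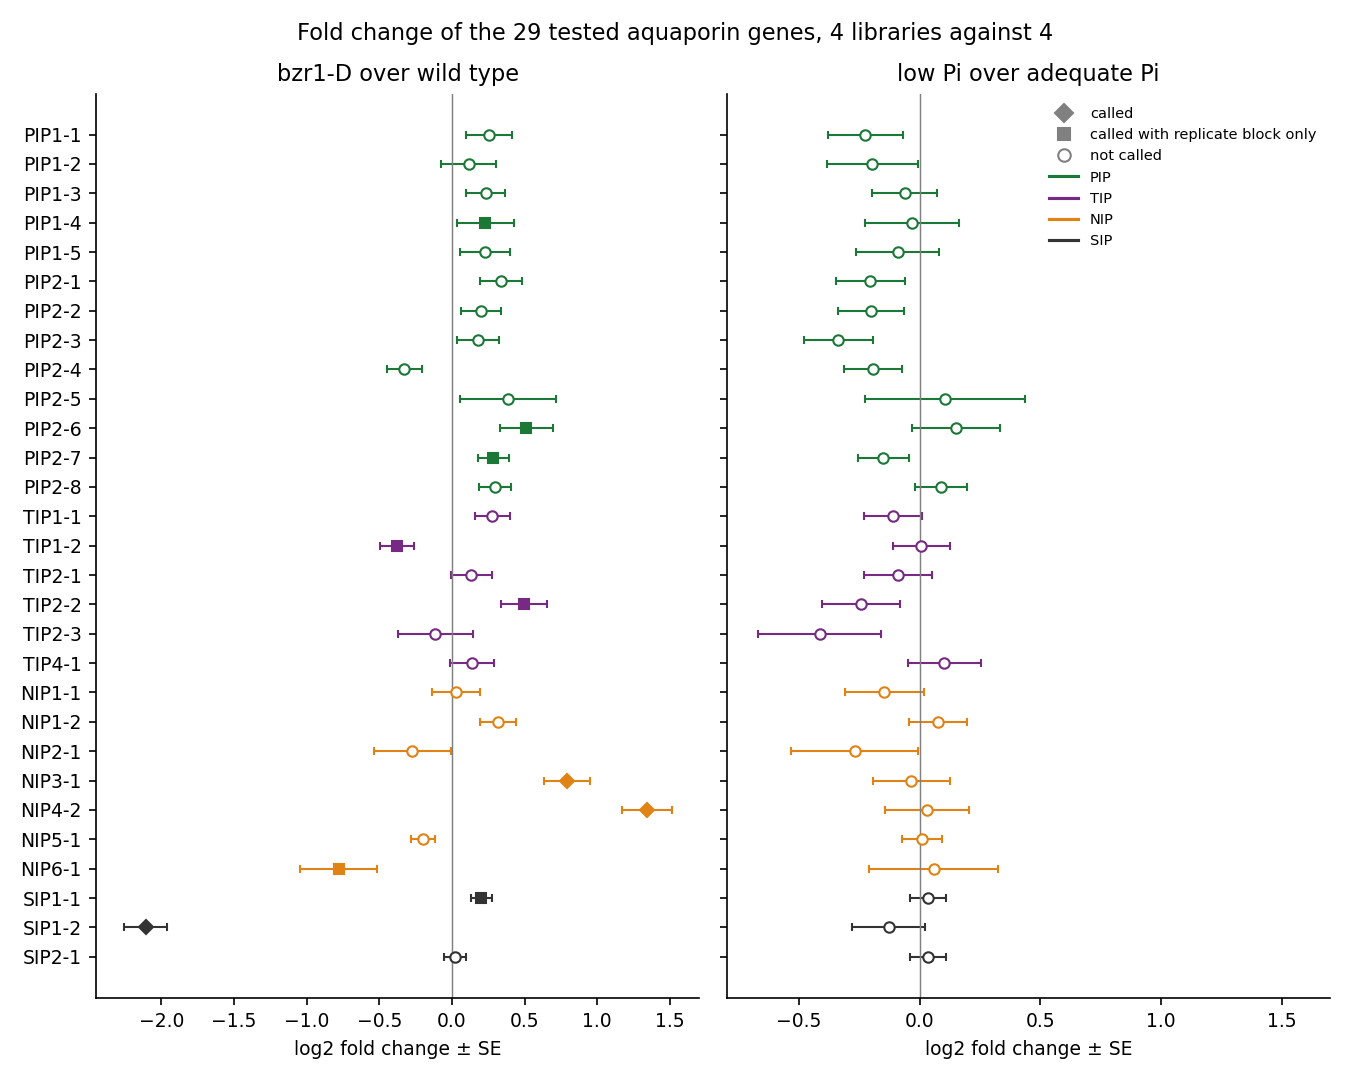
Log2 fold change ± SE, without the replicate block, of the 29 tested aquaporin genes for bzr1-D over wild type (left) and low Pi over adequate Pi (right). Filled diamonds were called and filled squares were called with the replicate block only, and 12 of 13 PIP genes lie right of 0 on the left panel.

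The PIP subfamily leaned to one side in bzr1-D. Its log2 fold changes averaged over Pi supplies were positive for 12 of 13 genes and had a median of 0.23. The exception was PIP2-4, a root plasma membrane channel, with -0.33 ± 0.12 (SE; edgeR adjusted p = 0.23). The median was 0.14 for the 6 TIP genes, 0.03 for the 7 NIP genes, 0.02 for the 3 SIP genes, 0.20 for all 29 and 0.01 for all features. Of all 20262 features, 10587 had a positive log2 fold change. The signs of the PIP genes are not independent, since the genes share their 8 libraries. Without the low Pi library of bzr1-D in Exp 2 the PIP median was 0.11. No PIP gene passed the test without the block, and 3 did with it. The 5 PIP1 genes stayed between 0.12 and 0.26, whereas the 7 NIP genes ran from -0.78 to 1.34, the widest of the 3 larger subfamilies. Seen library by library, 5 genes were higher in all 4 bzr1-D libraries than in all 4 of wild type (PIP2-7, PIP2-8, NIP3-1, NIP4-2 and SIP1-1) and 4 were lower (TIP1-2, NIP5-1, NIP6-1 and SIP1-2). Over all features, 5.69% were higher and 7.47% lower in this way. NIP5-1, the boric acid channel of root uptake, averaged 80.1 ± 2.14 CPM in bzr1-D on low Pi, 81.2 ± 9.18 CPM in bzr1-D on adequate Pi, 93.9 ± 5.56 CPM in wild type on low Pi and 91.6 ± 1.21 CPM in wild type on adequate Pi (SD, n = 2 each), with a log2 fold change of -0.20 that passed neither fit.

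At each Pi supply alone, 2 libraries stood against 2. On adequate Pi, 1 of 29 genes was called in bzr1-D against wild type, where 1.99% of all features were, 0.706% higher and 1.29% lower. It was SIP1-2, with a log2 fold change of -1.95 ± 0.21 (SE; edgeR adjusted p = 0.0041). NIP4-2 was next (1.13 ± 0.24, adjusted p = 0.077), then NIP3-1 (0.66 ± 0.22, adjusted p = 0.32). With the replicate block 4 were called, where 7.4% of all features were (2.81% higher and 4.59% lower), namely SIP1-2 and TIP1-2 lower and NIP4-2 and NIP3-1 higher. The median of all 29 was 0.08, with 12 of 13 PIP genes and 2 of 6 TIP genes above 0, where 10494 of all 20262 features were.

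On low Pi, 2 of 29 genes were called, where 2.12% of all features were, 0.78% higher and 1.34% lower. SIP1-2 had a log2 fold change of -2.27 ± 0.21 (SE; edgeR adjusted p = 0.0023) and NIP4-2 of 1.56 ± 0.24 (adjusted p = 0.023). NIP3-1 had 0.92 ± 0.23 (adjusted p = 0.12). With the replicate block 6 were called, where 9% of all features were (3.86% higher and 5.14% lower), namely NIP4-2, NIP3-1, PIP2-7 and PIP1-4 higher and SIP1-2 and NIP6-1 lower. The median of all 29 was 0.29, of the PIP genes 0.34 and of the TIP genes 0.30. Within Exp 1 the PIP median was 0.06 and within Exp 2 it was 0.57, so that the shift of the PIP genes was mostly that of Exp 2. The PIP median was 0.15 without the low Pi library of bzr1-D in Exp 2 and 0.51 without that of Exp 1. The call of NIP4-2 was lost when only the compared groups were fitted (adjusted p = 0.065), and when any 1 of the libraries other than those of wild type on adequate Pi was left out (adjusted p from 0.053 to 0.17).

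The comparison of low with adequate Pi asks whether 24 h of Pi shortage changes these genes. In wild type, 0 of 29 genes were called by edgeR's quasi-likelihood test, where 0% of all features were. An unadjusted p under 0.05 was found for 0 of 29, and for 331 of all 20262 features. DESeq2 and limma-voom also called 0 members. With the replicate block 0 members were called, where 0.0839% of all features were, 0.0642% higher and 0.0197% lower, and 5 of 29 had an unadjusted p under 0.05, as did 1095 of all features. These 5 were PIP2-7, NIP1-1, TIP2-1, PIP1-4 and PIP2-4, all lower on low Pi, with log2 fold changes of -0.21 to -0.35 and edgeR adjusted p from 0.56 to 0.89. The log2 fold changes were nevertheless mostly negative, in 21 of 29 genes, where those of 50.9% of all features were. By subfamily, they were negative in 10 of 13 PIP, 6 of 6 TIP, 4 of 7 NIP and 1 of 3 SIP genes. The median of all 29 was -0.20, against -0.00 for all features. It was -0.28 for the PIP genes, -0.26 for the TIP genes, -0.16 for the NIP genes and 0.02 for the SIP genes. The standard errors had a median of 0.20 without the block and 0.14 with it.

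Without the block, the 3 genes with the smallest unadjusted p in wild type were PIP2-7, PIP2-3 and PIP2-4. With it they were PIP2-7, NIP1-1 and TIP2-1, with edgeR adjusted p of 0.56, 0.58 and 0.63. PIP2-7, a plasma membrane water channel, had 609 and 490.4 CPM on low Pi and 731 and 668 CPM on adequate Pi, a log2 fold change of -0.35 ± 0.15. Both low Pi libraries were below both adequate Pi libraries. PIP2-3 had 113.9 and 86.4 CPM on low Pi and 133 and 139 CPM on adequate Pi, a log2 fold change of -0.44 ± 0.20, and PIP2-4 had 162 and 123 CPM on low Pi and 192 and 169.9 CPM on adequate Pi, -0.35 ± 0.17 (SE; edgeR adjusted p = 1 for all 3). In the 2 libraries against 2, 15 of 29 genes were lower on low Pi without overlap, where 10.7% of all features were, and 3 were higher, where 11.9% were. The genes share these 4 libraries. PIP2-7, PIP2-3 and PIP2-4 were among the 15, and the difference was larger within Exp 2 for each of them. PIP2-3 was called lower (log2 fold change -0.77, edgeR adjusted p = 0.014) in the fit with the replicate block once the low Pi library of Exp 1 was left out. Within Exp 1 the median log2 ratio of the 29 genes was -0.11, and within Exp 2 it was -0.35, with -0.41 for the PIP genes in Exp 2. The low Pi library of wild type in Exp 2 is also the one with the highest summed level of touch and wounding genes, most of it from TCH3. The part of these genes in the result was not tested.

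In bzr1-D, low Pi called 0 of 29 genes, where 0% of all features were called. An unadjusted p under 0.05 was found for 0 of 29, and for 253 of all 20262 features. DESeq2, limma-voom and the replicate block, with which 0.0197% of all features were called, also called 0 members. With the block 1 of 29, TIP4-1, had an unadjusted p under 0.05 (edgeR adjusted p = 1), as did 850 of all 20262 features. The log2 fold changes were balanced, 14 positive and 15 negative (13 and 16 with the block), with a median of -0.01. Without the block the 3 smallest unadjusted p belonged to SIP1-2, TIP4-1 and PIP2-3. SIP1-2 had 1.53 and 1.75 CPM on low Pi and 1.66 and 2.36 CPM on adequate Pi (-0.29 ± 0.23). TIP4-1, a vacuolar channel, had 114.0 and 83.6 CPM on low Pi and 97.3 and 68.3 CPM on adequate Pi (0.25 ± 0.21). PIP2-3 had 100.03 and 144.0 CPM on low Pi and 136 and 151 CPM on adequate Pi (-0.23 ± 0.20; SE, edgeR adjusted p = 1 for all 3). All 3 pairs of groups overlapped, and PIP2-3 lost its negative sign without the low Pi library of bzr1-D in Exp 1 (0.01). The Exp numbers differed in direction, with a median log2 ratio of the 29 genes of -0.08 within Exp 1 and 0.08 within Exp 2.

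Averaged over both genotypes, low Pi again called 0 of 29 genes, where 0% of all features were called. Of the 29, 1 gene, PIP2-3, had an unadjusted p under 0.05, as did 442 of all 20262 features. DESeq2 and limma-voom called 0 members, and so did the replicate block, with which 0.148% of all features were called, 0.143% higher and 0.00494% lower. With the block no member had an unadjusted p under 0.05, PIP2-3 included, where 1293 of all 20262 features did. The largest changes by unadjusted p were those of PIP2-3 (-0.34 ± 0.14), of TIP2-3, a vacuolar channel that also passes ammonia (-0.42 ± 0.26), and of PIP2-4 (-0.19 ± 0.12; SE, edgeR adjusted p = 1.00 for all 3). TIP2-3 had 149 and 327 CPM in bzr1-D on low Pi, 226 and 332 CPM in bzr1-D on adequate Pi, 254 and 199 CPM in wild type on low Pi, and 314 and 373 CPM in wild type on adequate Pi, and its lowest library was that of bzr1-D on low Pi in Exp 1. No gene had all 4 low Pi libraries on 1 side of the 4 adequate Pi libraries. Over all features only 0.888% were higher and 0.439% lower in this way, so this does not set the family apart. PIP2-3 was called lower once the wild-type low Pi library of Exp 1 was left out of the fit with the replicate block (edgeR adjusted p = 0.0076).

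**Figure D5:**
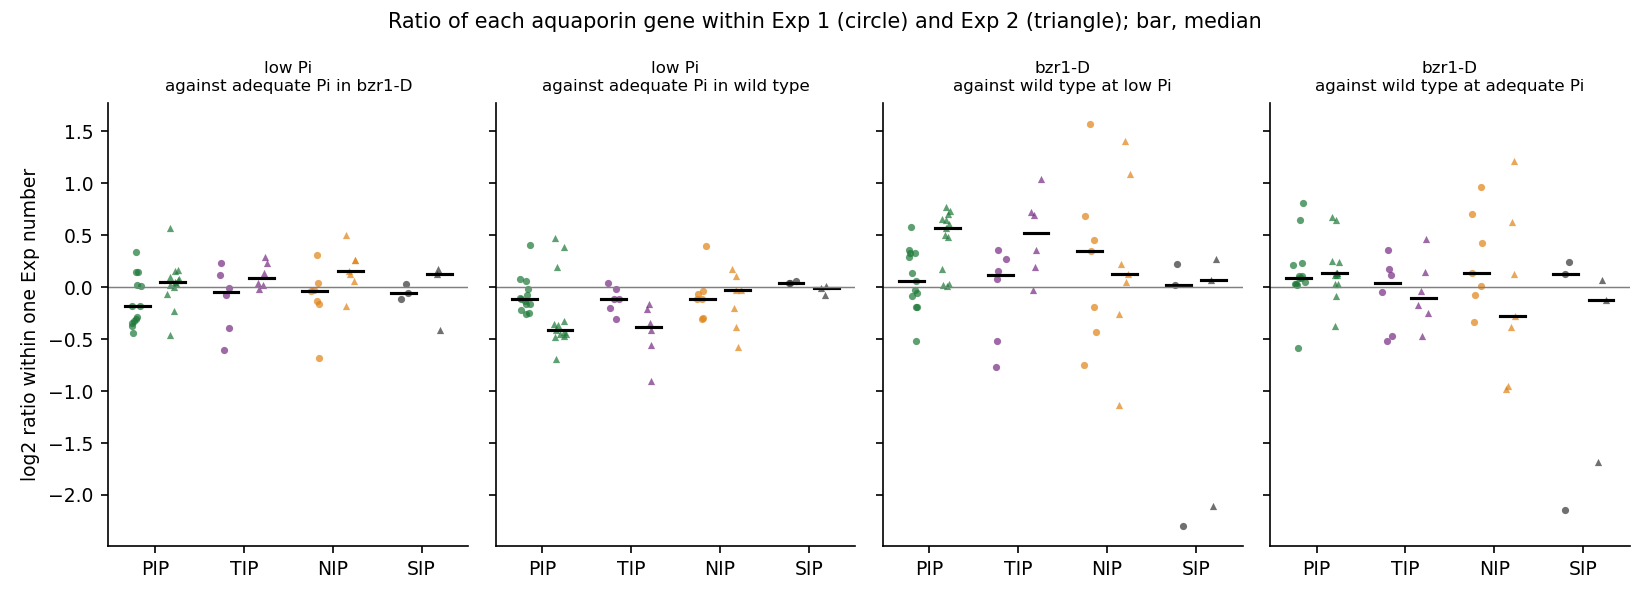
Log2 ratio of each of the 29 tested genes within Exp 1 (circles) and Exp 2 (triangles) for the 4 pairwise comparisons, by subfamily, with bars at medians. For low Pi in wild type the PIP median is -0.11 in Exp 1 and -0.41 in Exp 2, and for low Pi in bzr1-D it is -0.18 in Exp 1 and 0.05 in Exp 2.

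The difference of the Pi responses, bzr1-D minus wild type, tests whether the genotypes answered Pi shortage differently. Of 29 genes 0 were called, where 0% of all features were called. An unadjusted p under 0.05 was found for 0 of 29, and for 159 of all 20262 features. DESeq2, limma-voom and the replicate block also called 0 members. With the block 4 of 29 had an unadjusted p under 0.05, as did 646 of all features. These were TIP2-1 (0.35 ± 0.13), PIP1-4 (0.34 ± 0.13), PIP2-7 (0.40 ± 0.16) and NIP1-1 (0.39 ± 0.15), as log2 differences with SE (edgeR adjusted p = 1 for all 4). The difference was positive in 23 of 29 genes, among them all 6 TIP and 10 of 13 PIP genes, with a median of 0.21 against 0.01 for all features. Of all 20262 features, 10685 had a positive difference. The 23 signs are not independent, since the genes share their 8 libraries. The PIP median was 0.20, and it was -0.07 without the low Pi library of bzr1-D in Exp 2 and 0.44 without that of Exp 1. Without the low Pi or the adequate Pi library of wild type in Exp 2 it was 0.11, and without the adequate Pi library of bzr1-D in Exp 1 it was 0.13. Without the block the 3 smallest unadjusted p were those of PIP2-7 (0.39 ± 0.21), PIP2-4 (0.31 ± 0.24) and NIP4-2 (0.43 ± 0.34; SE, edgeR adjusted p = 1.00 for all 3). For PIP2-7 the levels behind the difference were 766 and 768 CPM in bzr1-D on low Pi, 754 and 733 CPM in bzr1-D on adequate Pi, and the wild-type values given above. The standard errors of these differences had a median of 0.30.

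None of the tested genes on a list of those known to act on aquaporins passed the test in the 7 comparisons. The list holds the syntaxins SYP121 and SYP61 and the vesicle proteins VAMP721 and VAMP722, which bring PIP channels to the cell surface, the ubiquitin ligases RMA1 to RMA3 and the receptor TSPO, which remove them, the kinases SIRK1 and OST1, and XND1, a xylem factor that lowers root water conductance. Of 13 names 11 could be matched, and 10 of these were tested, TSPO being too low with 0.10 to 0.45 CPM. In all 7 comparisons 0 of 10 were called, with and without the replicate block. Of all features, 5.37% were called between genotypes averaged over Pi supplies, 1.99% on adequate Pi and 2.12% on low Pi without the block. With it these shares were 15.3%, 7.4% and 9%. In the other comparisons they were 0% without the block and at most 0.148% with it. In the averaged genotype comparison without the block, 3179 of all 20262 features had an unadjusted p under 0.05. For the averaged genotype comparison edgeR gave 1 of 10 an unadjusted p under 0.05, RMA2, with 18.2 and 38.3 CPM in bzr1-D on low Pi, 28.3 and 37.2 CPM in bzr1-D on adequate Pi, 20.9 and 19.8 CPM in wild type on low Pi, and 17.6 and 21.7 CPM in wild type on adequate Pi. Its log2 fold change was 0.60 ± 0.23 (SE; edgeR adjusted p = 0.25), and the genotypes overlapped through the low Pi library of bzr1-D in Exp 1.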

How the data were processed

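Read counts per annotated feature were deposited by the authors as whole numbers with no normalization, 1 column per library. TopHat2 2.0.11, HTSeq 0.6.1, DESeq2 1.2.8 and TAIR10 stand in the submitters' processing notes without roles, and the handling of strand and of reads with several matches was not given in the sources used here. The strain and tissue tags of the labels hold each other's values, so groups came from titles. Tests ran in edgeR 4.0.16 under R 4.3.3 (robust quasi-likelihood fit, 1 coefficient per group over 8 libraries, TMM, default filter with minimum count 10, 4 residual degrees of freedom), with Benjamini-Hochberg adjustment over 20262 features and calls at an adjusted p under 0.05. P-values measure the spread between these libraries. CPM is scaled by TMM. TPM used exon lengths of RefSeq TAIR10.1, found for features holding at least 97.6% of counts. No library was a copy of its replicate (chi-square per degree of freedom 17.6 to 37.9).

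Whether the Exp numbers of the labels pair the libraries was checked on deviations from group means. Same-numbered libraries deviated together in all 6 pairs of groups (correlations over all features 0.29 to 0.64), so the numbers were taken to pair them. Over the 29 aquaporin genes the correlations were 0.18 to 0.72. The pairs with wild type on low Pi were the weakest there, at 0.18 to 0.32. The fit without the replicate block stayed the reported one although it leaves this pairing out, and blocked values stand beside results whose calls or counts they change. The estimated spread between libraries of a group (edgeR's common biological coefficient of variation) was 0.169 without the block and 0.0858 with it. The script was tested on simulated data. DESeq2 1.42.0, limma-voom (limma 3.58.1), other scaling, no filter and leaving out libraries were tried as alternatives. Full statistics were given for called members and, where fewer than 3 were called, for the 3 members with the smallest unadjusted p, and per-library levels for the highest member of each subfamily. NIP6-1, TIP1-2, TIP2-2 and other genes called only with the block, NIP5-1, RMA2 and genes with an unadjusted p under 0.05 only with the block were described after their values were seen. The family, the lists and the tests were chosen with earlier results of these data known. DNA sequences and gene starts are from RefSeq TAIR10.1, and coordinates of genes are those of the deposited table.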

Additional observations from a re-analysis of the deposited data

How the results depend on the processing

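The call of SIP1-2 in all 3 genotype comparisons, and that of NIP4-2 averaged over Pi supplies (adjusted p at most 0.027), held under every alternative that was run. The count of 3 called genes averaged over Pi supplies became 5 with DESeq2, 10 with the replicate block, 9 with DESeq2 and the block, and 9 with limma-voom and the block, and ran from 2 to 15 when 1 library was left out. The count of 1 on adequate Pi became 4 in each of the 3 fits with the replicate block and ran from 1 to 6. The count of 2 on low Pi became 6 with the block, 9 with DESeq2 and the block, 6 with limma-voom and the block and 1 when only the compared groups were fitted, and ran from 1 to 13. The counts of 0 for low Pi ran from 0 to 1 in wild type and averaged over genotypes. Of all features, edgeR called 5.37% averaged over Pi supplies without the block and 15.3% with it. On adequate Pi these shares were 1.99% and 7.4%, and on low Pi 2.12% and 9%. For the other fits, those without 1 library included, the share of all features is not given here. Their counts are therefore no result about aquaporins in particular. The higher ends of the ranges come from fits with the block. Without it, leaving out 1 library gave 1 on adequate Pi, 1 to 2 on low Pi and 2 to 3 averaged. NIP3-1 lost its averaged call in 7 of 8 of these fits (adjusted p up to 0.12) and NIP4-2 its call on low Pi in 6 of 8 (up to 0.17). With the block, the highest counts came without the low Pi library of Exp 1, of wild type averaged (15) and of bzr1-D on low Pi (13). The log2 fold change of PIP2-3 on low Pi in bzr1-D ran from -0.52 to 0.01, and from -0.54 to 0.035 with the block, when 1 library was left out, positive in each case without the low Pi library of Exp 1. The cause of these changes was not tested. Among all alternatives for the named single genes, 472 values kept direction and side of the threshold, 28 gained a call, 14 lost one and 2 changed sign. Leaving out 1 library with the block, and DESeq2 and limma-voom with the block, were chosen after seeing the data. Genes under about 40 counts per library, such as SIP1-2 in bzr1-D and NIP4-2 in wild type, rest on few reads.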
